A study of Mus musculus with 313 samples.

Results

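Innate lymphoid cell precursors (ILCP) of the mouse fetal liver at embryonic day 15 were split by whether their transcript for the chemokine receptor Cxcr5 was detected. Single cells had been sorted and each was measured with 100 quantitative RT-PCR assays. Of the 152 ILCP cells, 65 gave a Cxcr5 Ct below 24 and formed the Cxcr5+ class, and the other 87 formed the Cxcr5- class. The whole series holds 313 cells, with α4β7+ lymphoid precursors (aLP) and 14 lymphoid tissue inducer precursors (LTiP) beside the ILCP. All gates shared absence of lineage markers and presence of IL7Rα and α4β7, and ILCP were then gated as PLZF+, aLP as PLZF-CXCR5- and LTiP as PLZF-CXCR5+. The livers were pooled before sorting, and the labels name no genotype, strain or agent that separates the groups. The classes were chosen by the Cxcr5 Ct itself, so that Cxcr5 is described and not tested.

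CXCR5 is the receptor for CXCL13, a chemokine that draws lymphocytes into lymphoid follicles and lymphoid tissue inducer (LTi) cells into forming lymph nodes and Peyer's patches. PLZF, the protein of Zbtb16, marks precursors that give rise to group 1, 2 and 3 ILCs, while LTi cells arise largely from precursors without it. The receptor is therefore best known in this tissue from the LTi branch, and ILCP cells can be compared by whether they carry its transcript.

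The readout is the Ct, the amplification cycle where an assay becomes visible, and a lower Ct stands for more cDNA. An assay counted as detected with a Ct below 24, and the level of an assay in a cell was 24 minus its Ct, in cycles, or 0 where it was not detected. The number 2 or 3 in each cell name was read as the sort number, which the labels do not define. The unit of comparison was the pool, that is all ILCP cells of 1 sort and 1 Cxcr5 class, and the level of a pool is the mean over all its cells. The 4 pools held 24 Cxcr5+ and 38 Cxcr5- cells of sort 2, and 41 Cxcr5+ and 49 Cxcr5- cells of sort 3. A difference is given as Cxcr5+ minus Cxcr5- in cycles. It is not a fold, since it takes in how many cells detected the assay as well as how much they held.

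Cxcr5 was detected in 24 of 62 ILCP cells of sort 2 (38.7%, exact 95% interval 26.6 to 51.9) and in 41 of 90 of sort 3 (45.6%, 35.0 to 56.4). Intervals of shares here cover counting error only. Its Ct ran from 15.4 to 22.0 with a median of 18.8, and the median was 19 in sort 2 and 18.8 in sort 3. No ILCP cell gave a Cxcr5 Ct at or above 24. The cells of the Cxcr5- class thus all had no Ct for this assay, and the values nearest the limit were 22.02 in sort 3, 22.0 in sort 2 and 21.47 in sort 3. Beside them, Cxcr5 was detected in 25.5% and 7.61% of aLP cells in sorts 2 and 3 although their gate was CXCR5-, and in 12 of 14 LTiP cells.

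Cxcr5+ and Cxcr5- cells gave nearly the same number of detected assays. Without Cxcr5 itself, the mean number of assays detected per cell was 40.3 in Cxcr5+ and 40.4 in Cxcr5- cells of sort 2, and 40.6 and 40.2 in sort 3. The medians were 41.5 and 41 in sort 2 and 40 in both classes of sort 3. The difference was 0.147 assays, with -0.103 in sort 2 and 0.398 in sort 3 (40.4 ± 0.19 against 40.3 ± 0.164, SD, n = 2 pools each). An exact two-sided permutation test over the 4 pool means gave p = 0.667, and 0.333 is the smallest p it allows. Among single cells the number ran from 25 to 50 and from 30 to 49 in the Cxcr5+ pools, and from 23 to 55 and from 26 to 53 in the Cxcr5- pools.

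**Figure D1:**
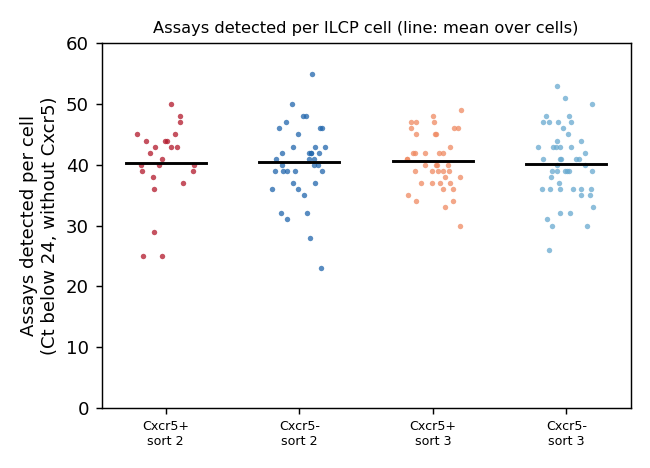
Number of assays detected per ILCP cell (vertical axis, Ct below 24, without Cxcr5) by Cxcr5 class and sort (horizontal axis). Each point is a cell and each line the mean over cells. The 4 means lie between 40.2 and 40.6 and the ranges overlap throughout.

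Of the 4 housekeeping genes, which report the cDNA yield of a cell, 3 had a negative difference in both sorts and Tbp was mixed, with 0 called in either fit. Actb and Gapdh were detected in every ILCP cell. The Actb level was 11.37 and 11.83 in Cxcr5+ and Cxcr5- cells of sort 2, and 11.28 and 11.31 in sort 3. Gapdh differed by -0.37 and -0.27 in sorts 2 and 3, Hprt by -0.61 and -0.03, and Tbp by 0.43 and -0.52. The Hprt values include a single Ct of 2.51 in a Cxcr5+ cell of sort 3, against 13.2 for the next lowest. Without that Ct, the mean Hprt Ct of sort 3 was 16.7 in Cxcr5+ and 16.3 in Cxcr5- cells. With it, the mean was 16.3 in both. The ILCP gate genes Il7r and Itga4 were detected in 39% to 62.5% and in 92.1% to 100.0% of the cells of a pool. The megakaryocyte gene Itga2b was detected in 33.3% and 39% of Cxcr5+ cells in sorts 2 and 3, against 15.8% and 30.6%, and its part in the results was not tested.

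**Figure D2:**
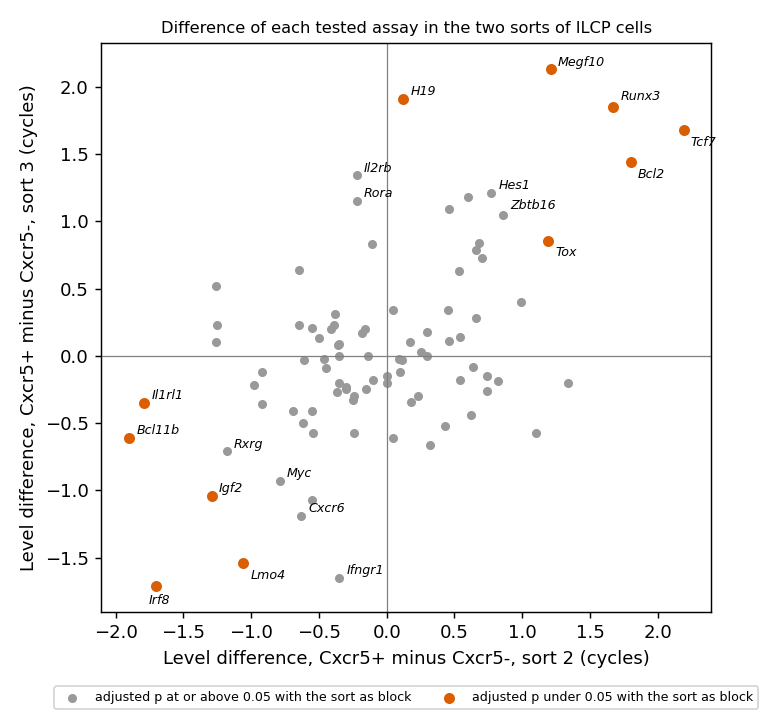
Level difference, Cxcr5+ minus Cxcr5-, of each of the 90 tested assays in sort 2 (horizontal axis) and sort 3 (vertical axis), in cycles. Orange points had an adjusted p under 0.05 with the sort as a block. Tcf7, Runx3, Bcl2 and Megf10 lie at the upper right, Irf8, Lmo4, Igf2 and Bcl11b at the lower left, and Il2rb and Rora between the quadrants where the sorts agree in sign.

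On the higher side in Cxcr5+ cells stood the transcription factors Tcf7 and Runx3, the survival gene Bcl2 and the cell surface receptor Megf10. On the lower side stood Irf8, Lmo4, Igf2 and Bcl11b. Each of these 8 differed in the same direction in both sorts, which the rule for named genes requires. In the fit without a block (limma, Benjamini-Hochberg adjustment over 90 assays), 0 assays passed a threshold of 0.05 (0.0% of those tested), and the smallest adjusted p was 0.203. At an unadjusted p under 0.05 there were 10 assays (11.1%), 5 in each direction. If the number in the cell name is the sort, the classes of a sort come from the same sorted cells. With the sort as a replicate block 6 assays were called higher with Cxcr5 (6.67%) and 5 lower (5.56%). They were Tcf7, Runx3, Bcl2, Megf10, Tox and H19, and Irf8, Lmo4, Igf2, Bcl11b and Il1rl1. H19 and Il1rl1 fall outside the rule for named genes and are named after their values were seen.

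The blocked calls rest on 1 residual degree of freedom and on a spread shared over assays, with an SE of 0.36 for each of the 90 differences. Without the 2 Cxcr5+ cells whose Cxcr5 Ct was 22 or above, which left every one of the 11 directions as it was, limma no longer pooled the spread fully and 0 assays passed with the block (smallest adjusted p 0.136, with 12 higher and 5 lower at an unadjusted p under 0.05). With each cell scaled to its housekeeping assays, 5 were called with the block, 4 higher and 1 lower, all among the 11. With the Hprt Ct of 2.51 taken as missing in that scaling, a setting chosen after seeing the data, 11 were called, 9 higher and 2 lower, of which 7 were among the 11. In the fit without a block, leaving out the Cxcr5+ pool of sort 2 gave 4 calls, all higher and 3 of them among the 11, with the lone Cxcr5+ pool assumed to vary like the Cxcr5- pools.

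Tcf7 encodes TCF-1, a factor of early T cell and ILC development. It was detected in all 65 Cxcr5+ cells, against 31 of 38 Cxcr5- cells in sort 2 (81.6%) and 46 of 49 in sort 3 (93.9%). Its level was 7.85 and 8.59 in the Cxcr5+ pools of sorts 2 and 3, and 5.67 and 6.91 in the Cxcr5- pools. Both Cxcr5+ pools lay above both Cxcr5- pools. Among detecting cells of sort 2 the Ct ran from 13.5 over a median of 15.7 to 21.1 with Cxcr5, and from 13.9 over 16.6 to 21.8 without. In sort 3 it ran from 13.5 over 15.3 to 18.6 with Cxcr5, and from 13.7 over 15.8 to 21.8 without. The lowest Ct values were thus alike in the classes, and cells without detected Tcf7 were found in the Cxcr5- class. Detecting cells also differed in mean Ct, with 16.1 with and 17.1 without Cxcr5 in sort 2, and 15.4 and 16.6 in sort 3. The level difference was 1.94 ± 0.56 (SE), with 2.2 in sort 2 and 1.7 in sort 3 (limma adjusted p = 0.412, and 5.32e-05 with the sort as a block).

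Runx3, a Runt factor that acts in ILC1, ILC3 and cytotoxic T cells, was likewise detected in all 65 Cxcr5+ cells, against 84.2% and 87.8% of Cxcr5- cells. The Runx3 level was 7.60 and 8.06 in the Cxcr5+ pools, and 5.93 and 6.20 in the Cxcr5- pools. The gap between the classes was larger than that between the sorts within a class. The difference was 1.76 ± 0.32, with 1.67 and 1.85 in the sorts (limma adjusted p = 0.203, and 0.000194 with the block). Counted together, Tcf7, Runx3 and Zbtb16 were all detected in 24 of 24 and 41 of 41 Cxcr5+ cells, against 25 of 38 (65.8%, 48.6 to 80.4) and 40 of 49 (81.6%, 68 to 91.2) Cxcr5- cells. This combination was chosen after the values were seen.

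**Figure D3:**
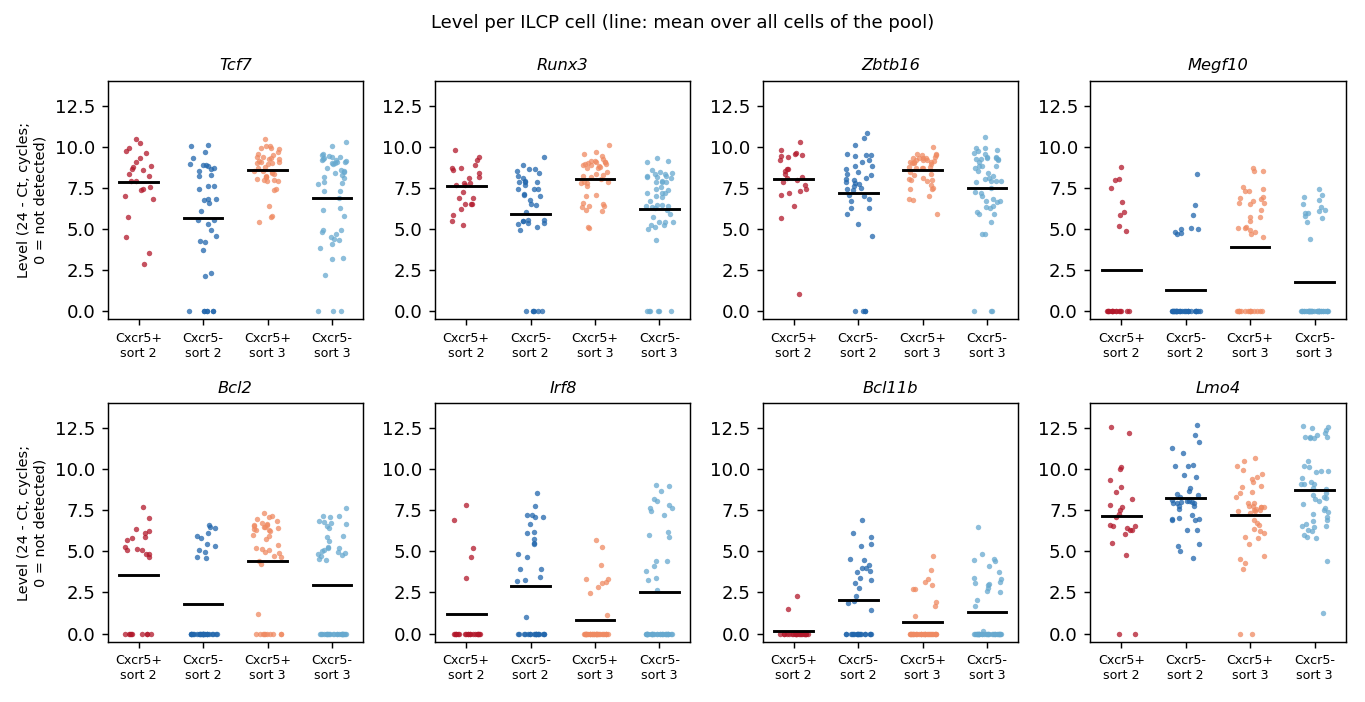
Level per ILCP cell (vertical axis, 24 minus Ct in cycles, 0 where not detected) of 8 assays, by Cxcr5 class and sort. Each point is a cell and each line the mean over all cells of the pool. Every Cxcr5+ cell lies above 0 for Tcf7, Runx3 and Zbtb16. For Irf8 and Bcl11b most cells of either class lie at 0 over both sorts. Above 0 lie 23.1% and 18.5% of Cxcr5+ cells, against 46.0% and 44.8% of Cxcr5- cells.

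Bcl2, an inhibitor of cell death, differed by its share of detecting cells and hardly by its Ct. It was detected in 62.5% and 75.6% of Cxcr5+ cells in sorts 2 and 3, and in 31.6% and 51.0% of Cxcr5- cells. The mean Ct of detecting cells was 18.3 and 18.4 in the classes of sort 2, and 18.2 in both of sort 3. The level difference was 1.62 ± 0.57, with 1.8 and 1.44 in the sorts (limma adjusted p = 0.412, and 0.000359 with the block). Megf10, a receptor for the engulfment of cells, was detected in 37.5% and 61% of Cxcr5+ cells, against 23.7% and 28.6% of Cxcr5- cells. Its level was 2.53 and 3.9 with Cxcr5, and 1.32 and 1.77 without. The Megf10 difference was 1.67 ± 0.56 (limma adjusted p = 0.412, and 0.000259 with the block). It was 0.99 without the Cxcr5+ pool of sort 3, while that of Bcl2 was 1.02 without the Cxcr5- pool of sort 2.

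Tox, a nuclear factor needed for ILC precursors, was detected in nearly every cell of either class. Its level was 8.83 and 8 with Cxcr5 in sorts 2 and 3, and 7.63 and 7.15 without. The Tox difference was 1.02 ± 0.42 (limma adjusted p = 0.484, and 0.0483 with the block), and 0.61 without the Cxcr5+ pool of sort 2. Zbtb16, on whose protein all these cells were gated, was detected in all 65 Cxcr5+ cells and in 89.5% and 93.9% of Cxcr5- cells. The Zbtb16 level was 8.04 and 8.57 with Cxcr5, and 7.17 and 7.52 without (limma adjusted p = 0.412, and 0.0605 with the block). H19, a long noncoding RNA of fetal growth, had a share of 50.0% in both classes of sort 2, and of 85.4% against 57.1% in sort 3. The H19 level differed by 0.12 and 1.91 (limma adjusted p = 0.801, and 0.0483 with the block), so that its call rests on sort 3.

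Further named genes were higher with Cxcr5 in both sorts without passing either fit. Hes1, a target gene of Notch, was detected in 50.0% and 75.6% of Cxcr5+ cells, and in 39.5% and 51.0% of Cxcr5- cells (limma adjusted p = 0.565, and 0.0505 with the block). Rbpj, the DNA-binding partner of Notch, had differences of 0.66 and 0.79, and the co-repressor Tle3, which Hes proteins recruit, of 0.60 and 1.18. The receptor genes Notch1 and Notch2 themselves differed by 0.05 and -0.61, and by -0.10 and -0.18. The TNF receptor family members Cd27 and Tnfrsf9 differed by 0.46 and 1.09, and by 0.53 and 0.63. Tnfrsf9 was detected in 66.7% and 51.2% of Cxcr5+ cells, against 42.1% and 30.6%, at mean Ct values of 21.3 to 21.7 that lie near the limit. The cell cycle inhibitor Cdkn1c differed by 0.70 and 0.73, and Igfbp4, a binding protein for insulin-like growth factors, by 0.68 and 0.84. Igfbp4 stood much further apart between the sorts than between the classes, at 37.5% and 75.6% with Cxcr5 and 26.3% and 67.3% without.

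Irf8, a transcription factor of myeloid, dendritic and B cells, had the most negative mean difference. It was detected in 5 of 24 and 10 of 41 Cxcr5+ cells (20.8% and 24.4%), and in 20 of 38 and 20 of 49 Cxcr5- cells (52.6% and 40.8%). The Irf8 level was 1.17 and 0.84 with Cxcr5, and 2.86 and 2.55 without. The pools of the classes did not overlap, and the sorts gave nearly the same difference, -1.70 and -1.71. Its mean was -1.70 ± 0.30 (limma adjusted p = 0.203, and 0.000252 with the block). In sort 3 the detecting cells also differed in amount, with a median Ct of 20.8 with Cxcr5 and 17.3 without. In sort 2 these medians were 18.8 and 18.4. Of the B lineage markers, Ebf1 and Pax5 were at 0 in all 4 pools and Bcl11a was detected in 0.0% to 5.26% of a pool's cells. Irf8 is the only myeloid and dendritic marker measured, and its part as a marker of such cells was not tested. The summed level of the 4 B lineage markers on the panel was 1.34 and 0.84 with Cxcr5, and 3.04 and 2.74 without. Nearly all of this sum was Irf8, since Bcl11a stood at 0.18 and 0.0 with Cxcr5, and at 0.18 and 0.2 without.

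Lmo4, a LIM-domain partner of transcription factors, was detected in 22 of 24 and 39 of 41 Cxcr5+ cells, and in every Cxcr5- cell. Its level was 7.18 and 7.21 with Cxcr5, and 8.25 and 8.75 without, which takes in both share and amount. The mean Ct of detecting cells was 16.2 with and 15.8 without Cxcr5 in sort 2, and 16.4 and 15.3 in sort 3. The Lmo4 difference was -1.30 ± 0.31 (limma adjusted p = 0.382, and 0.0073 with the block). Igf2, a fetal growth factor gene next to H19, was detected in 2 of 24 and 10 of 41 Cxcr5+ cells, and in 28.9% and 30.6% of Cxcr5- cells. Its level was 0.72 and 1.69 with Cxcr5, and 2.01 and 2.73 without, so that the Cxcr5+ pool of sort 3 came close to the Cxcr5- pool of sort 2 (limma adjusted p = 0.484, and 0.0185 with the block). The Igf2 difference was -1.17, and -0.68 without the Cxcr5+ pool of sort 2. Myc, a driver of cell growth, was detected in 62.5% and 53.7% of Cxcr5+ cells, and in 73.7% and 71.4% of Cxcr5- cells (limma adjusted p = 0.412, and 0.0953 with the block).

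Genes of group 2 ILCs, which respond to interleukins 25 and 33 and make type 2 cytokines, stood mostly lower in Cxcr5+ cells. Of the 10 tested, 8 had a negative difference in both sorts, 0 a positive one in both and 2 were mixed. With the block, 2 were called lower and 0 higher. Over all 90 assays 32 were lower in both sorts (35.6%) and 23 higher in both (25.6%). The median difference of the ILC2 list was -0.58, against -0.07 over all assays, and it was -0.95 and -0.35 within the sorts. A Cxcr5+ cell carried 2.21 and 2.44 of the 10 transcripts on average in sorts 2 and 3, and a Cxcr5- cell 4.0 and 2.84. Cells with none of them made up 20.8% and 4.88% of the Cxcr5+ class, against 15.8% and 20.4% of the Cxcr5- class. In sort 3 more Cxcr5- than Cxcr5+ cells thus had none of the 10.

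Bcl11b, a factor of T cells and ILC2, was detected in 2 of 24 Cxcr5+ cells and 20 of 38 Cxcr5- cells of sort 2 (8.33% and 52.6%). In sort 3 it was detected in 10 of 41 and 19 of 49 (24.4% and 38.8%). Its level was 0.16 and 0.68 with Cxcr5, and 2.06 and 1.29 without. The direction was shared, while the size was -1.90 in sort 2 and -0.61 in sort 3 (limma adjusted p = 0.412, and 0.00984 with the block). Il1rl1, which encodes the interleukin-33 receptor ST2, was detected in 0 of 24 Cxcr5+ cells in sort 2 (a share of up to 12.5%) and in 28.9% of Cxcr5- cells. In sort 3 the shares were 2.44% and 8.16%, and the adjusted p was 0.529 in limma without the block and 0.0374 with it. Il17rb, a receptor for interleukin-25, was detected in 0 of 24 and 3 of 41 Cxcr5+ cells, against 26.3% and 20.4%. Il13, a type 2 cytokine, was detected in 16.7% of Cxcr5+ cells of sort 2 and in 0 of 41 of sort 3 (up to 7.32%), against 26.3% and 12.2%. Rxrg, a retinoid X receptor, was detected in 25% and 31.7% of Cxcr5+ cells, against 47.4% and 38.8% (limma adjusted p = 0.412, and 0.0614 with the block).

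At least 1 of Il1rl1, Il17rb, Icos and Il13 was detected in 4 of 24 and 6 of 41 Cxcr5+ cells (16.7% and 14.6%), against 23 of 38 and 17 of 49 Cxcr5- cells (60.5% and 34.7%). Bcl11b or Irf8 was detected in 29.2% and 41.5% of Cxcr5+ cells, against 89.5% and 73.5% of Cxcr5- cells. Both genes together were detected in 0 of 24 and 3 of 41 Cxcr5+ cells, and in 6 of 38 and 3 of 49 Cxcr5- cells. Most Cxcr5- cells therefore carried 1 of these 2 transcripts, and few carried both. These combinations, too, were chosen after the values were seen. Gata3, the central ILC2 factor, had differences of only -0.30 and -0.25, and Rora, which ILC2 also need, of -0.22 and 1.15.

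**Figure D4:**
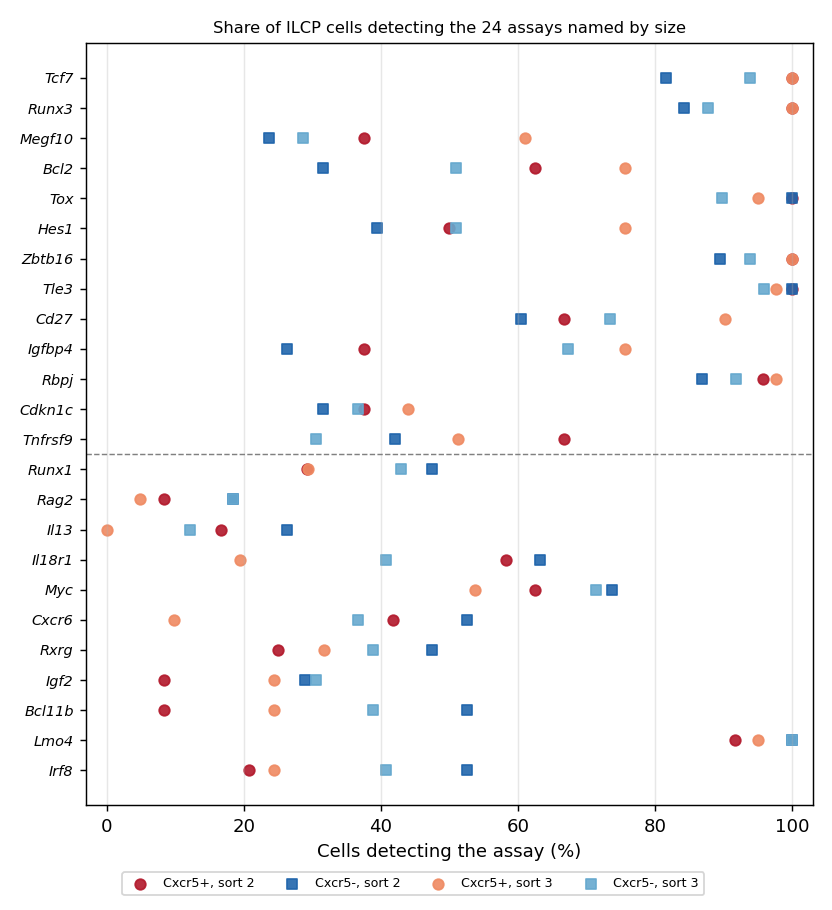
Share of ILCP cells detecting each of the 24 assays named by size (horizontal axis, percent), by Cxcr5 class (circles Cxcr5+, squares Cxcr5-) and sort (dark, sort 2; light, sort 3). Assays above the dashed line were higher in level with Cxcr5 in both sorts (13) and those below it lower (11). Tcf7 and Runx3 reach 100.0% in both Cxcr5+ pools.

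The other lower genes named by size fall into several groups. Cxcr6, a chemokine receptor of ILC precursors, was detected in 41.7% and 9.76% of Cxcr5+ cells, against 52.6% and 36.7%. Il18r1, an interleukin-18 receptor chain, was detected in 58.3% and 19.5%, against 63.2% and 40.8%. The recombinase gene Rag2, a trace of early lymphoid progenitors, was detected in 8.33% and 4.88%, against 18.4% in both Cxcr5- pools. Runx1, a Runt factor of blood progenitors, was detected in 29.2% and 29.3%, against 47.4% and 42.9%. Their level differences ran from -0.41 to -1.19 in single sorts, and none of the 4 passed either fit.

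The other lists are given by their counts, beside the shares over all assays above. Of 12 ILC precursor factors 4 were higher in both sorts and 5 lower in both, and with the block 3 were called higher (Tcf7, Runx3 and Tox) and 1 lower (Bcl11b). Their median difference was -0.01. A Cxcr5+ cell carried 7.62 and 7.68 of these 12 transcripts on average in sorts 2 and 3, and a Cxcr5- cell 7.66 and 7.39. Among 11 T lineage and Notch genes there were 4 above 0 and 5 below 0 in both sorts, with 1 called in each direction with the block and a median of -0.14. Of 7 cytokine receptors 0 were higher and 4 lower in both sorts, with 1 called lower with the block and a median of -0.40. Of 6 genes of the TNF family 3 were higher and 0 lower in both, with 0 called and a median of 0.36. Of 5 TLE co-repressors 2 were higher and 1 lower, with a median of 0.04, and of 5 homing receptors and integrins 1 and 1, with a median of -0.01, and 0 were called in either list. Some genes stand in several lists. The share of assays differing in the same direction in both sorts was 61.1% over all 90, so that counts of 5 to 12 genes are to be read against it.

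The ILC1 and NK genes gave different pictures in the sorts. Among the 7 tested, 2 differed upward in both sorts, 2 downward and 3 were mixed, with 0 called. Tbx21, which encodes T-bet, was detected in 33.3% and 31.6% of Cxcr5+ and Cxcr5- cells of sort 2, and in 24.4% and 8.16% in sort 3. Il2rb, which forms part of the receptors for interleukins 2 and 15, gave 54.2% and 42.1% in sort 2, and 63.4% and 30.6% in sort 3. The Il2rb level nevertheless differed by -0.22 in sort 2 and by 1.34 in sort 3. The difference between the sorts was not tested. The summed level of the 4 NK markers on the panel was 4.27 and 3.85 in sort 2, and 3.79 and 1.33 in sort 3. Over all 90 assays 35 had differences of opposed sign in the sorts, among them Il7r, with 1.10 and -0.57, and Zbtb7a, with -1.26 and 0.52.

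Lta, Ltb, Cd4 and Tnfrsf11a, genes of the LTi list, were more frequent with Cxcr5 in sort 2, and the first 3 were less frequent in sort 3, a difference between the sorts that was not tested. Of these 4 tested, 1 (Tnfrsf11a) had a higher level in both sorts, 0 a lower one in both and 3 were mixed, with 0 called and medians of 0.55 in sort 2 and -0.13 in sort 3. Lta and Ltb, the lymphotoxin genes, were detected in 33.3% and 37.5% of Cxcr5+ cells of sort 2, against 23.7% and 31.6%. In sort 3 they were at 7.32% each with Cxcr5, against 10.2% and 18.4%. Cd4, carried by part of LTi cells, gave 25% against 7.89% in sort 2 and 7.32% against 8.16% in sort 3. Tnfrsf11a, the receptor RANK, gave 33.3% against 18.4%, and 14.6% against 6.12%.

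Tnfsf11, the RANK ligand gene, and Il23r, the interleukin-23 receptor, were each detected in 1 of 24 Cxcr5+ cells of sort 2 and in 0 cells of each of the other 3 pools, which allows up to 7.89% for the Cxcr5- pool of sort 2. Il1r1 was detected in 0 cells of the 4 pools (up to 12.5% in the smallest). Of these 7 transcripts a Cxcr5+ cell carried 1.38 on average in sort 2 and 0.366 in sort 3, and a Cxcr5- cell 0.816 and 0.429. At least 3 of them were detected in 6 of 24 and 1 of 41 Cxcr5+ cells, and in 3 of 38 and 1 of 49 Cxcr5- cells.

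**Figure D5:**
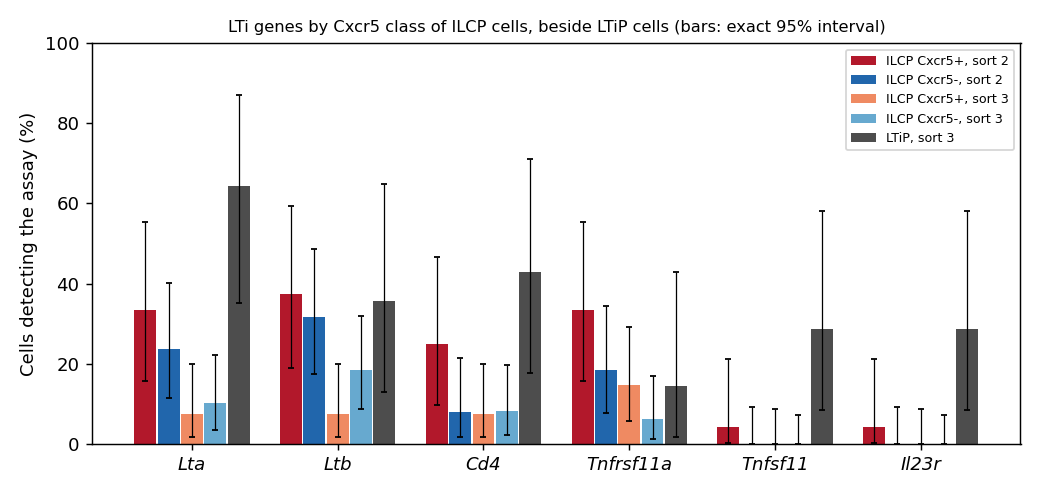
Share of cells detecting 6 LTi genes (vertical axis, percent) in ILCP cells by Cxcr5 class and sort, and in the 14 LTiP cells of sort 3. Bars start at 0 and lines are exact 95% intervals for counting error. The Cxcr5+ and Cxcr5- ILCP cells of sort 3 are at 7.32% and 10.2% for Lta, where LTiP cells are at 64.3%.

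LTiP cells, which come from sort 3 only, were gated as CXCR5+ and PLZF- and are set beside ILCP cells that carry the Cxcr5 transcript. Zbtb16 was nevertheless detected in 7 of 14 LTiP cells (50.0%) and in 58.3% of those with Cxcr5, against 100.0% of Cxcr5+ ILCP cells of sort 3. With 1 LTiP pool there is no test, and LTiP cells gave fewer assays, 32.7 on average against 40.6. The share of LTiP cells with Lta was 64.3% (35.1 to 87.2), and in sort 3 it was 7.32% among Cxcr5+ and 10.2% among Cxcr5- ILCP cells. Cd4 was detected in 42.9% against 7.32%, and Tnfsf11 and Il23r each in 28.6% against 0 of 41 (up to 7.32%). In the other direction Hes1, Cd27, H19 and Bcl11b were each missing from all 14 LTiP cells (0 detected, exact interval up to 23.2%). They were detected in 75.6%, 90.2%, 85.4% and 24.4% of Cxcr5+ ILCP cells of sort 3. In Cxcr5- ILCP cells of sort 3 these shares were 51.0%, 73.5%, 57.1% and 38.8%, so that the contrast is not particular to the Cxcr5+ class. Tcf7 was detected in 12 of 12 LTiP cells with Cxcr5 and Bcl2 in 83.3% of them, while Megf10 was detected in 1 of 14 LTiP cells.

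The aLP cells with a Cxcr5 transcript, 14 in sort 2 and 7 in sort 3, gave a Tcf7 share of 78.6% and 100%, against 14.6% and 10.6% of aLP cells without it. Zbtb16 was detected in 42.9% and 28.6% of them although their gate was PLZF-, against 12.2% and 1.18%. Their Runx3 shares were 92.9% and 100%, against 82.9% and 65.9%, and their Irf8 shares 42.9% and 57.1%, against 82.9% and 81.2%. These aLP classes also differed in depth, with 36.7 and 34.4 assays per cell with Cxcr5 and 29.6 and 27.6 without. Megf10 was detected in 1 aLP cell with Cxcr5 in each sort, and Bcl11b in no aLP cell of either class. The Lmo4 and Hes1 shares did not repeat the ILCP direction in sort 2. Lmo4 gave 100% and 85.7% with Cxcr5, against 82.9% and 95.3%, and Hes1 0% and 42.9%, against 2.44% and 7.06%. Bcl2 was higher with Cxcr5 in both sorts, with 57.1% and 71.4% against 51.2% and 23.5%.

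Within ILCP the differences were also read among cells of like depth. Each sort was cut into tertiles of the number of assays detected, without Cxcr5 and the assay itself, which gave 6 strata. The genes read here were named for 1 sign in both sorts of these same cells. Their sign counts over strata are therefore a description and no independent support. The Tcf7, Runx3, Bcl2, Megf10, Zbtb16 and Tox differences were above 0 in 6 of 6 strata, and that of Lmo4 below 0 in 6 of 6. The Irf8 difference was below 0 in 5 of 6, with 0.04 in the deepest tertile of sort 3, and that of Bcl11b in 4 of 6. For Tcf7 the differences were 2.44, 2.55 and 1.15 from the shallowest to the deepest tertile of sort 2, and 2.20, 2.45 and 0.72 in sort 3. Every cell of the deepest tertiles had Tcf7 in either class. With cells standardised on this number, 9 assays were called with the block, 8 of them among the 11. The cell numbers, which fall into ranges of 96, cut the same cells into 5 other strata. In 5 of 5 the Tcf7, Bcl2 and Megf10 differences were above 0 and those of Irf8 and Bcl11b below 0. The Runx3 difference was above 0 in 4 of 5, with -1.35 in the range of sort 2 that starts at 97, which holds only 3 Cxcr5+ cells. The Lmo4 difference was 0.45 in that range and below 0 in the other 4, and that of Igf2 was 1.11 in the range from 1 to 96 of sort 3 and below 0 in the other 4.

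Among Cxcr5+ cells the level of Cxcr5 itself was set beside those of the named genes. Over the 24 cells of sort 2 and the 41 of sort 3, the level of Irf8 had a Pearson correlation of -0.52 and -0.26 with that of Cxcr5 (Spearman -0.55 and -0.16). For Runx3 it was -0.15 and 0.45, for Tcf7 0.36 and 0.16, and for Bcl2 0.03 and 0.37. These describe cells that share the number read as the sort, and possibly a pool of livers. The Runx3 values opposed each other between the sorts.

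Between the sorts the level differences of the 90 assays had a Pearson correlation of 0.55 and a Spearman correlation of 0.44, across assays, which are not replicates. Of the 90, 55 had the same sign in both sorts (61.1%). The median absolute gap between the sorts within a class was 0.50 cycles and that between the classes within a sort 0.41. At the median the Cxcr5 classes were thus no further apart than the sorts were. Of the 90 assays, Tcf7, Runx3, Bcl2, Megf10, Irf8, Lmo4 and Igf2 had differences of over 1 cycle in each sort, in the same direction.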

How the data were processed

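Per the file headers, what the authors deposited are Ct values of 100 assays without any normalization, measured on a Biomark HD system. Per the labels, single cells were reverse transcribed and preamplified for 22 cycles. The rule behind a missing Ct and the chemistry of each assay are not given in the sources used here. Of the 6358 Ct values of ILCP cells, 160 (2.52%) lay at or above the limit of 24. No 2 ILCP cells had identical profiles, and no per-cell scaling was applied. Depth is the number of assays detected per cell, since the files hold no read counts. Of the assay names, 98 matched a mouse gene table of RefSeq by symbol, 1 by synonym and 1 not.

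Cells were grouped by the labels (ILCP), by the number in the cell name (sort) and by their Cxcr5 Ct. Cells were not counted as replicates. An assay was tested where 5% or more of the cells of any of the 4 ILCP pools detected it, with limma 3.58.1 in R 4.3.3 (lmFit, eBayes), with class as the only term, which leaves 2 residual degrees of freedom. Adjustment was by Benjamini-Hochberg over 90 assays at 0.05. The sort as a replicate block was the alternative. It pairs the pools on the reading that both classes of a sort come from the same sorted cells and pooled livers, which the labels do not state. Their deviations from the class means had a correlation of 0.67 across assays. A p-value measures only the spread between these pools, which may be technical. Named were up to 12 called assays in each direction whose sorts had 1 sign, filled to 24 by the smaller of the 2 within-sort differences, with the tested LTi, gate and housekeeping genes. Of the assays on the panel, 1 is not reported here and was left out of the named genes and lists. The members and lists were chosen with earlier results of these data known. The fit without a block was checked first on simulated pools without a sort effect. Their known changes were larger than the differences of the tested assays. The blocked fit was not checked in this way. Shares carry exact Clopper-Pearson 95% intervals, and a share of 0 an upper limit (3 divided by the cells examined), which limits cells with a detected transcript. Alternatives were other limits, scalings, filters, cell sets, shares or detecting cells only, and leaving out each pool. Python 3.11.15 was used with scipy 1.17.1 for permutations, and with matplotlib 3.10.9 for figures.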

Additional observations from a re-analysis of the deposited data

How the results depend on the processing

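Without the block, 0 assays passed in limma under each alternative that keeps the 4 pools and adds no block, and with a pool left out the count ran from 0 to 4. Without the Cxcr5+ pool of sort 2 it was 4, all higher, of which 3 were among the 11. With the sort as a replicate block 11 passed, and 9 with cells also standardised on the number of assays. The blocked count was 0 with shares of detecting cells, 1 with detecting cells only, 5 with housekeeping scaling, 6 in cells with Zbtb16 detected, and 0 with a Cxcr5 limit of 22 or with Cxcr5 Ct values of 22 to 26 left out. It was 15 without the sort 2 cells numbered 97 and higher (8 higher and 7 lower, 8 among the 11), 13 with no assay filter, and 11 with housekeeping scaling once the Hprt Ct of 2.51 was taken as missing (7 among the 11). It was 8 with the 20% filter, and 9 with either other detection limit or with median scaling. These blocked alternatives were chosen after seeing the data. Each of the 11 kept its direction in these blocked fits where it was tested (8 were tested in detecting cells only). The difference in assays per cell was 0.147, but -0.264 and 0.343 with detection limits of 22 and 26, 0.503 with a Cxcr5 limit of 22, 0.375 with Cxcr5 Ct values of 22 to 26 left out and -0.67 in cells with Zbtb16 detected. It ran from -0.103 to 0.398 in single sorts. Of the named genes, in detecting cells only the difference turned to 0.15 for Cxcr6, 0.1 for Runx1, 0.32 for Ltb, -0.62 for Cd4, -0.06 for Il7r, -0.13 for Itga4 and 0.31 for Tbp. Il7r was at -0.07 without the sort 2 cells numbered 97 and higher, Itga4 at -0.07 in cells with Zbtb16 detected and Actb at 0.06 with housekeeping scaling. Tbp was at 0.08 with a detection limit of 22, 0.05 with a Cxcr5 limit of 22 and 0.01 with Cxcr5 Ct values of 22 to 26 left out. With each pool left out in turn the difference ran from 0.99 to 2.36 for Megf10, from 0.61 to 1.44 for Tox, from 1.02 to 2.22 for Bcl2, from -1.65 to -0.68 for Igf2, from -0.66 to 2.2 for Igfbp4, from -0.6 to 1.24 for Lta, from -0.85 to 0.7 for Ltb, from -0.1 to 0.66 for Cd4, from -0.9 to 1.44 for Il7r, from -0.42 to 0.6 for Itga4, from -0.5 to 0.02 for Actb, from -0.66 to 0.02 for Gapdh and from -0.35 to 0.26 for Tbp. The causes were not tested. Of the other comparisons of named genes with their main value, 628 kept direction and side of the threshold and 20 passed newly. As 0 assays passed in the main fit, keeping the side means not passing. Taking any Cxcr5 Ct as detected left the classes as they were, and the assay filters left each difference as it was. These settings could not turn a direction. The number of pools, 2 per class, and not the number of cells limits these tests.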
